A study of Mus musculus with 6 samples.

Results

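The cytochrome P450 genes of the mouse were examined in methylated DNA immunoprecipitation sequencing (MeDIP-seq) data from primary mesangial cells, the contractile cells that hold the capillaries of the renal glomerulus. They were chosen by name, as protein-coding genes whose symbol is Cyp followed by a family number, a subfamily letter and a gene number, which left 90 of the 21418 protein-coding genes on chromosomes 1 to 19. P450 genes with other forms of symbol, such as Cyp51, are not members, so counts by family or subfamily cover members only. Their 90 windows (each gene with 2 kb either side) lay on 14 chromosomes and covered 2742 kb. MeDIP-seq enriches DNA fragments with an antibody against methylated cytosine, and a peak is a stretch where fragments pile up above the local background. Of the 6 samples, 3 were controls and 3 came from cells given TGF-β1 at 10 ng/ml for 72 hours. All were grown in high glucose (25.5 mM) with 20% fetal bovine serum and used at passages 3 to 6. The study calls the samples of a group biological replicates, but the labels do not say from how many animals the cells came or whether replicates were separate cultures, so the p-values below measure only the spread between these samples. High glucose was shared by the controls, so no sample stands for normal glucose. Peak lists of DNA hold no RNA, and the identity of the cells was not checked against markers.

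Cytochromes P450 are heme enzymes that insert oxygen into fat-soluble molecules. Members of families Cyp1 to Cyp4 mainly oxidize drugs, pollutants and fatty acids, and some turn arachidonic acid into lipid signals that act on renal blood flow. Others carry out fixed steps in the making or breakdown of steroid hormones, bile acids, vitamin D and retinoic acid. Many are expressed chiefly in liver, and several large subfamilies sit in tandem arrays of similar genes. Methylation in mammals falls mostly on cytosines followed by guanine (CG), and a MeDIP peak is usually read as methylated CGs lying close together. The P450 regions below held 0 to 54 CGs each.

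The sequences below are 200 bases each of mm9, plus strand, 5′ to 3′, with every CG in capitals. The leading 6 are centered on peak summits to which the results return, namely the highest P450 peak (Cyp2j13), the regions with the smallest p in the comparison of treatments (Cyp2c38 and Cyp4f17), the region with a peak in the treated group only (Cyp46a1), the P450 promoter with a peak in every sample (Cyp2r1) and the coding exon with a peak in every sample (Cyp8b1). The last pair lies directly before the start of genes with no peak in any sample, Cyp26a1 with the most CGs per kb of all members and Cyp3a11 from a CG-poor subfamily.
Cyp2j13, intron 8, chr4:95720235-95720434: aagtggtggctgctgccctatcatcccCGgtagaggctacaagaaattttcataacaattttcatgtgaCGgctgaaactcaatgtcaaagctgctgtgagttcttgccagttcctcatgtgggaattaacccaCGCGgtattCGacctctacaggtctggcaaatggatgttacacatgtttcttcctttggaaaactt
Cyp4f17, intron 6, chr17:32660591-32660790: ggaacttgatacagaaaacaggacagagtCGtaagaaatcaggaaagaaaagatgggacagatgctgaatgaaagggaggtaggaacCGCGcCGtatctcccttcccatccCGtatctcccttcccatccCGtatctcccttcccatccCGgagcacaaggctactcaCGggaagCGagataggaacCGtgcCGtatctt
Cyp2c38, downstream, chr19:39462503-39462702: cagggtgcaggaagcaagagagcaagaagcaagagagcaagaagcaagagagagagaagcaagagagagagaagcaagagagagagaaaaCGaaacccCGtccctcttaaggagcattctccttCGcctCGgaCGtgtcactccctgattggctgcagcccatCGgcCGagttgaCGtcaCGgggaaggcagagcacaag
Cyp46a1, intron 1, chr12:109576262-109576461: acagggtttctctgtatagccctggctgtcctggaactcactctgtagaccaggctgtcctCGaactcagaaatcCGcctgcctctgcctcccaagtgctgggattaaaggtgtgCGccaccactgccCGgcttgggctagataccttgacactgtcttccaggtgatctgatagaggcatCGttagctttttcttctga
Cyp2r1, upstream, chr7:121706672-121706871: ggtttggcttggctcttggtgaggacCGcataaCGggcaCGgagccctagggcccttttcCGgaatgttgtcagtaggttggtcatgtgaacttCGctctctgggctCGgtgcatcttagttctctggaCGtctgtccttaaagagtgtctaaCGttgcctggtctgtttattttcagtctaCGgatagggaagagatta
Cyp8b1, coding exon 1, chr9:121824118-121824317: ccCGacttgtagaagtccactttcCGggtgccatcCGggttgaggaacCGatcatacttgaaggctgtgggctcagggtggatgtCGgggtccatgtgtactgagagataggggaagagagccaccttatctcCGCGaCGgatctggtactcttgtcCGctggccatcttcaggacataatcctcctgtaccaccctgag
Cyp26a1, upstream, chr19:37772098-37772297: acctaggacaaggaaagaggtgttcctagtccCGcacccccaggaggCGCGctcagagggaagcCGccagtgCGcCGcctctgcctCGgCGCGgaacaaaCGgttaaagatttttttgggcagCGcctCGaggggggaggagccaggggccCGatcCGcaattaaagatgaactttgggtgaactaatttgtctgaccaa
Cyp3a11, upstream, chr5:146691541-146691740: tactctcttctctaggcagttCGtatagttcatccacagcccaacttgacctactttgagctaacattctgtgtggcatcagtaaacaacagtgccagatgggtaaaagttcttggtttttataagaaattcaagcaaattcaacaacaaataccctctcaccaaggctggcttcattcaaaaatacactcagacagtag
These stretches held 5 CGs in Cyp2j13, 11 in Cyp4f17, 9 each in Cyp2c38, Cyp2r1 and Cyp8b1, 5 in Cyp46a1, 14 in Cyp26a1 and 1 in Cyp3a11. Of the words of 49 bases in them (the length of the reads), 100% in Cyp2c38, 69.7% in Cyp2j13 and 57.9% in Cyp46a1 occurred at least once more in the genome, against 0% in the other 5. The authors had kept reads that matched a single place in the genome, and the part of repeats in these pileups was not tested.

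The 6 deposited lists held 81473 to 105520 peaks from 9407103 to 13291419 reads. The treated samples had 12634300 reads or more and the controls at most 11494356, so in counts of peaks the effect of depth cannot be told apart from that of TGF-β1. The lowest pileup called, in reads stacked at the summit, was 8 in the controls and 9 to 10 in the treated samples. Peaks were called by q against the local background and not at a fixed pileup, so a region without a peak may have a pileup above these values, and its methylation is not known.

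The number of peaks in P450 genes was 54, 61 and 73 in control replicates 1 to 3 and 77, 73 and 71 in TGF-β1 replicates 1 to 3, the order used for all values below. Joined where they overlapped by at least 1 bp, these peaks made 108 regions with a median length of 394 bp and pileups from 10 to 129. In all, 46 of the 90 genes had a peak in at least 1 sample, 23 had 1 in every sample, and 44 had none. Of the 108 regions, 36 (33.3%) were called in all 6 samples, compared with 24.5% of the 170444 regions of the genome, and 25 (23.1%) were called in 1 sample only, compared with 27.3%. A region counts every peak joined in it, and at Cyp2c67 only the summit of TGF-β1 replicate 1 lay within the window of the gene. Across the 36 regions called in every sample, the summits of a region lay within a median of 79 bp of each other. Most peaks were intronic, with 69.2% ± 3.37 of a sample's P450 peaks in introns, 10.4% ± 1.65 within 2 kb downstream, 8.13% ± 2.07 in coding exons, 7.38% ± 1.97 within 2 kb upstream and 4.90% ± 1.16 in untranslated exons (mean and SD, n = 6).

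**Figure D1:**
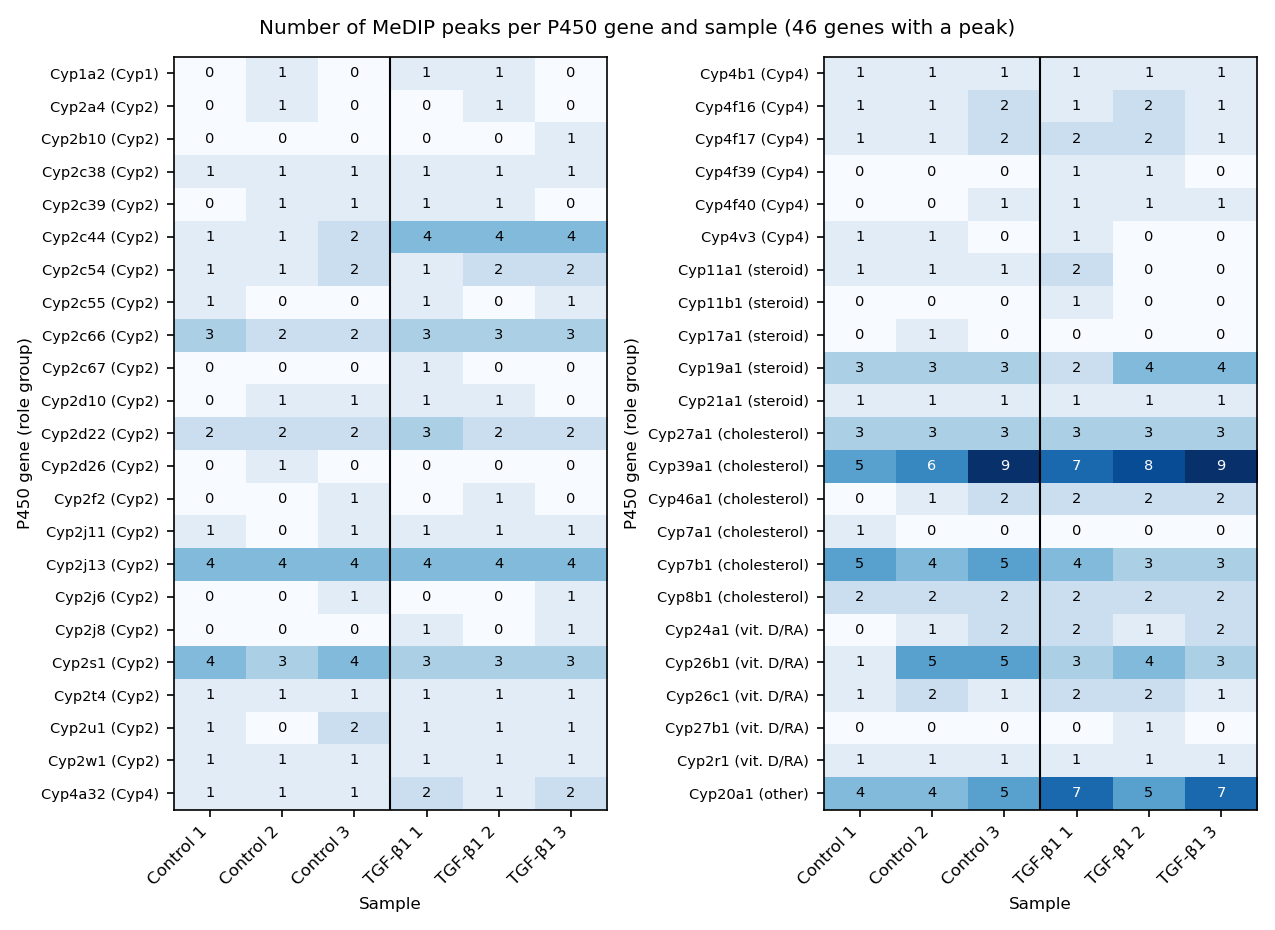
Number of MeDIP peaks in each of the 46 P450 genes with a peak (rows, with the role group in brackets) in each of the 6 samples (columns), with control samples left of the black line; darker blue marks more peaks. Cyp39a1 has the most, 5 to 9 peaks a sample, most other genes have 0 to 4, and Cyp2c44 is the gene in which every TGF-β1-treated sample (4 peaks) is above every control sample (1 to 2 peaks).

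Compared with the other protein-coding genes of chromosomes 1 to 19, P450 genes were poor in peaks. They held 2.49 ± 0.320 peaks per 100 kb and the others 5.30 ± 0.518 (mean and SD, n = 6), and P450 genes were lower in 6 of 6 samples (exact two-sided sign-flip test over samples, p = 0.03125, the smallest that 6 samples allow). The gap was wider in coding sequence, with 4.17 ± 1.45 against 22.9 ± 4.20 peaks per 100 kb, than outside it, with 2.40 ± 0.271 against 4.68 ± 0.431 (each lower in 6 of 6 samples, exact sign-flip p = 0.03125, adjusted p = 0.03125). A share of 48.9% of P450 genes (44 of 90) and 24.1% of the other genes (5145 of 21328) had no peak in any sample. All samples share 1 genome and the same 90 genes, so this test says only that the difference recurred over samples.

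P450 genes were also poor in CG, with 7.54 CGs per kb in their windows against 10.3 in those of the other genes. Per 1000 CGs they held 3.30 ± 0.425 peaks and the others 5.16 ± 0.505 (exact sign-flip p = 0.03125). The genes were also split by CG content, an analysis chosen after the data were seen. P450 minus other genes came to -0.450, -0.166 and -0.801 peaks per 100 kb from low to high CG content, against -2.81 over all genes. Both sets held the fewest peaks in the lowest class, so these differences are not relative to the rates. The part of CG content in the low number of P450 peaks was not tested. Among genes with under 6 CGs per kb (34 P450 and 2955 other genes) there were 0.570 ± 0.112 and 1.02 ± 0.0776 peaks per 100 kb, and among those with 6 to 10 (31 and 4583 genes) 3.52 ± 0.387 and 3.69 ± 0.327, with P450 genes lower in 6 of 6 samples in both classes (exact sign-flip p = 0.03125). With 10 or more CGs per kb (25 and 13790 genes) the values were 7.22 ± 1.39 and 8.02 ± 0.832, and P450 genes were lower in 5 of 6 samples (exact sign-flip p = 0.09375). Genes without a peak were then 76.5%, 45.2% and 16% of P450 genes and 78.5%, 23.8% and 12.6% of the others in the 3 classes, from low to high CG content.

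**Figure D2:**
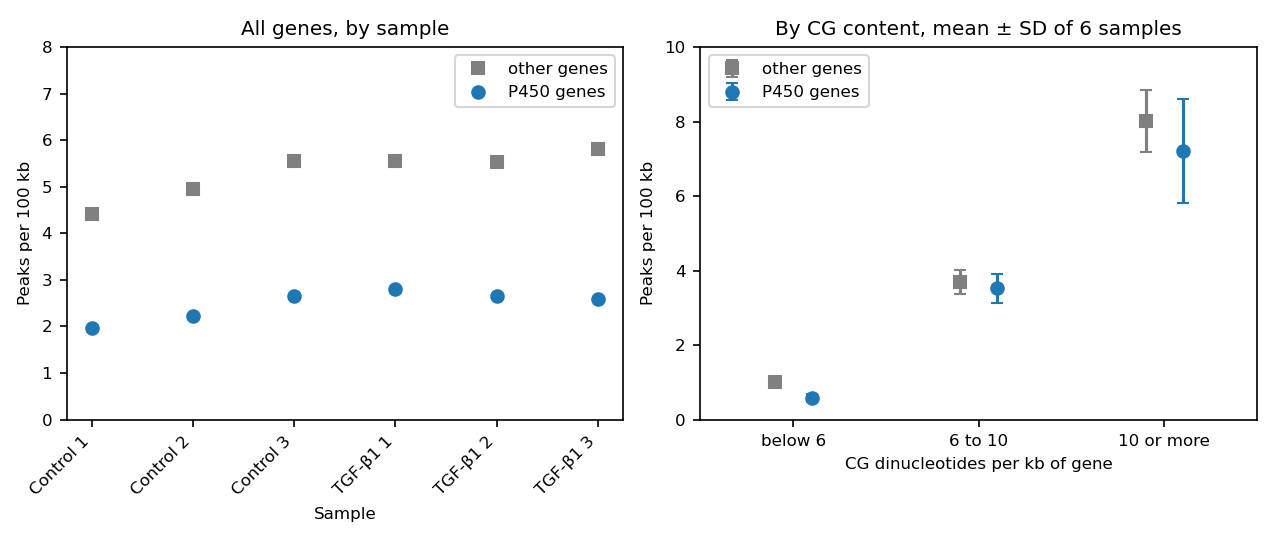
Peaks per 100 kb of gene (with 2 kb either side) for P450 genes (blue circles) and all other protein-coding genes (gray squares), by sample on the left and, on the right, by class of CG content as mean ± SD of the 6 samples. P450 genes lie below the others in every sample, 1.97 to 2.81 against 4.42 to 5.80, while within classes of CG content the means are 0.570 against 1.02, 3.52 against 3.69 and 7.22 against 8.02.

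Among the 90 members, those with more CGs held more peaks per 10 kb (Spearman rho = 0.628 across genes, which share libraries and base composition and are not independent). The share of repeated words of 49 bases in a member, 0.0391% to 47.2% with a median of 7.64%, went with fewer peaks (rho = -0.253) and with a lower CG content (rho = -0.484). The part of repeats in the low number of peaks was not tested. The highest number of peaks per 10 kb was in Cyp8b1 (3.36), which makes cholic acid, followed by Cyp2s1 (1.81), Cyp2d22 (1.58), Cyp21a1 (1.39), Cyp26b1 (1.36) and Cyp26c1 (1.27). Some members rich in CG had no peak, led by Cyp26a1 with 36.4 CGs per kb and Cyp1b1 with 23.6.

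**Figure D3:**
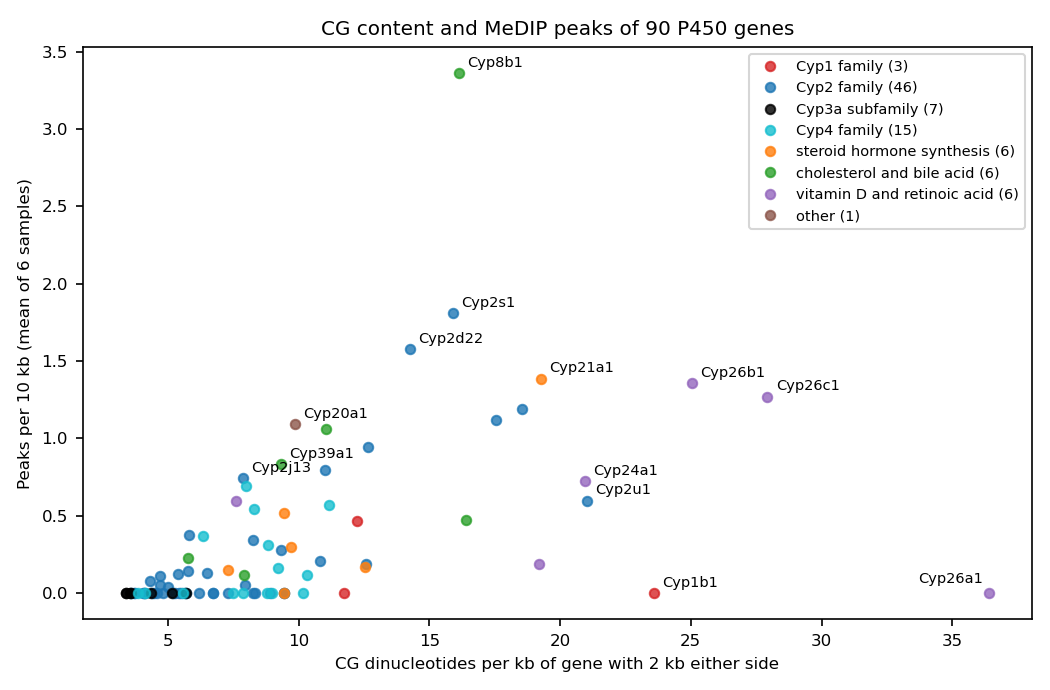
CG dinucleotides per kb (x axis) and mean number of peaks per 10 kb over 6 samples (y axis) of the 90 P450 genes, each a point colored by role group with the number of genes in brackets. Peaks tend to be denser in genes with more CGs. The Cyp3a genes lie at 0, and the highest point is Cyp8b1, at 3.36 with 16.1 CGs per kb. Cyp1b1 and Cyp26a1 lie at 0 with 23.6 and 36.4 CGs per kb.

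Promoters of P450 genes rarely carried a peak. In the window from 1000 bases before to 500 bases after the start, 3.89% of P450 genes and 6.01% of the other genes had a peak, averaged over the samples, and the P450 share was lower in 6 of 6 samples (exact sign-flip test, p = 0.03125). The P450 share stands for 3 to 5 genes a sample, largely the same ones, so the test says only that the difference recurred over samples. The median P450 promoter window held 12 CGs and an observed-to-expected CG ratio of 0.148, against 49 and 0.491 for the other genes. A promoter peak appeared in 6 P450 genes. Cyp2r1, whose enzyme starts the activation of vitamin D in liver, had 1 in every sample, 286 bases before its start, with pileups of 20, 13 and 19 in the controls and 21, 20 and 17 in the treated samples. Its groups overlapped, with a log2 fold change (TGF-β1 over control) of -0.05 (SE 0.22), and the sequence around its summit shown above holds 9 CGs. Cyp2s1 and Cyp2d22, enzymes of the Cyp2 family, had a promoter peak in 5 samples each, Cyp26c1 in 3, and Cyp2b10 and Cyp2c44 in 1 each.

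The Cyp1 family oxidizes polycyclic aromatic compounds and is switched on by the aryl hydrocarbon receptor. Cyp1a1 and Cyp1b1 had no peak in any sample, and Cyp1b1 carries 75 CGs in its promoter window. Other members with many CGs there, Cyp46a1 (124), Cyp26a1 (89) and Cyp24a1 (73), had no promoter peak either, while Cyp2r1 (69) had 1 in every sample. Cyp1a2 had a peak in coding exon 7, at chr9:57524985-57525409, in control replicate 2 (pileup 19) and TGF-β1 replicates 1 and 2 (18 and 24).

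The Cyp2 family, with 46 members after Cyp2r1 was placed with vitamin D, held 21, 20 and 26 peaks in the controls against 28, 27 and 27 after TGF-β1. Every treated sample was above every control sample, by 5 peaks in the mean (exact permutation test, p = 0.1, the smallest for 3 samples against 3, and 0.533 adjusted over the 8 role groups). Per 1000000 reads the direction turned, to -0.0194 peaks (p = 0.9, exact permutation test). Division by reads lowers every treated sample, since all had more reads than the controls, and depth and TGF-β1 cannot be told apart here. Peaks were spread unevenly over the subfamilies. In the subfamilies with several members, 1 of 4 Cyp2a, 1 of 5 Cyp2b, 7 of 15 Cyp2c, 3 of 8 Cyp2d and 4 of 7 Cyp2j genes had a peak in any sample. These subfamilies held 0.700, 0.106, 1.23, 4.10 and 1.65 peaks per 100 kb. Of the Cyp2 genes alone in their subfamily, Cyp2s1, Cyp2t4, Cyp2u1 and Cyp2w1 held 18.1, 11.2, 5.97 and 11.9 peaks per 100 kb. They carried 15.9 to 21.0 CGs per kb against 5.18 to 9.79 in the subfamilies with several members. Cyp2f2 held 1.88 peaks per 100 kb, and Cyp2e1, which oxidizes ethanol, and Cyp2g1 had none.

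The highest P450 peak lay in intron 8 of Cyp2j13, of the epoxygenase subfamily Cyp2j, at chr4:95720123-95720493. Its pileups were 110, 103 and 108 in the controls and 112, 103 and 129 after TGF-β1, with only 142 of the 41744 regions called in every sample having a higher mean. The groups overlapped (log2 fold change -0.13, SE 0.11). The same intron held 3 further regions called in every sample, the next highest with pileups of 77, 69 and 82 in control and 69, 79 and 94 in treated samples. In these 4 regions 68.7% to 85.8% of the words of 49 bases were repeated elsewhere, and of the 5 highest P450 regions 4 were more than 50% repeated, the exception being that in Cyp4f17 at 0%. The region in intron 3 of Cyp4a32, a fatty acid hydroxylase gene, was 85.8% repeated and had pileups of 34, 39 and 42 against 41, 44 and 50. Over all 108 regions the median repeated share was 0%, with 13 over 50%. The part of repeats in these high pileups was not tested.

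Cyp3a enzymes oxidize a wide range of drugs. None of the 7 Cyp3a genes had a peak in any sample over 259 kb, and the subfamily had the lowest CG content of the role groups, 4.13 per kb. The stretch before Cyp3a11 printed above, with 1 CG, is an instance.

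Cyp4 enzymes hydroxylate fatty acids at the end of the chain. Peaks were found in 7 of 15 Cyp4 genes, with 5, 5 and 7 peaks in control and 9, 8 and 6 in treated samples (exact permutation p = 0.2, adjusted p = 0.533). Cyp4f17 carried the strongest, in intron 6 at chr17:32660492-32660921. Cyp4b1 and Cyp4f16 had a region in every sample, with pileups of 13 to 26 and 15 to 27. Cyp4x1, Cyp4a10, Cyp4a14, Cyp4a31, Cyp4f13, Cyp4f14, Cyp4f15 and Cyp4f18 had no peak.

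Steroid hormone genes held 5, 6 and 5 peaks in control and 6, 5 and 5 in treated samples, and the most were in Cyp19a1, the aromatase that makes estrogens. Cyp19a1 had 3, 3 and 3 against 2, 4 and 4 peaks. Intron 2 of a transcript and intron 1 of a different transcript of the gene each held a region called in every sample. Cyp21a1, which forms precursors of cortical steroids, had 1 peak downstream of the gene in every sample (pileups 17, 16 and 19 against 24, 16 and 21), in a region 40.1% repeated. Cyp11a1, which cuts the cholesterol side chain, had a peak in intron 4 in the 3 control samples (14, 15 and 17) and TGF-β1 replicate 1 (18), and none there in replicates 2 and 3. Its region in intron 5, at chr9:57870064-57870507, was called in TGF-β1 replicate 1 only (pileup 16). That region held 0 CGs and was 59.1% repeated. Cyp11b1 and Cyp17a1 had a peak in 1 sample each, and Cyp11b2, the aldosterone synthase, in none.

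All 6 cholesterol and bile acid genes had a peak, with 16, 16 and 21 peaks in control and 18, 18 and 19 in treated samples (exact permutation p = 1). Cyp39a1, an oxysterol hydroxylase, had the most peaks of all members, 5, 6 and 9 against 7, 8 and 9, in 12 regions of which 5 were called in every sample. Cyp8b1 is a gene of a single exon, and its coding sequence held the P450 coding region called in all samples, at chr9:121823917-121824475, with pileups of 26, 34 and 43 against 30, 32 and 38. The groups overlapped there (log2 fold change -0.24, SE 0.19). Cyp27a1, a mitochondrial sterol hydroxylase, had the same 3 regions in every sample, with pileups from 21 to 38. Cyp7b1, a second oxysterol hydroxylase, had 5, 4 and 5 against 4, 3 and 3 peaks. Cyp46a1, which hydroxylates cholesterol in neurons, had 0, 1 and 2 against 2, 2 and 2, and Cyp7a1, the rate-limiting enzyme of bile acid synthesis, had 1 peak, in control replicate 1.

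Vitamin D and retinoic acid genes were the richest in CG, 21.7 per kb, and held 3, 9 and 9 peaks in control and 8, 9 and 7 in treated samples, with control replicate 1 below the rest. The retinoic acid hydroxylases differed among themselves. Cyp26b1 had 1, 5 and 5 peaks against 3, 4 and 3, among them a region in coding exon 4 (pileups 14 and 45 in control replicates 2 and 3, and 36, 37 and 27 in treated samples, with no peak in control replicate 1). Cyp26c1 had a region in intron 5 in every sample (26, 19 and 23 against 26, 22 and 28). Cyp26a1 had no peak, and the 200 bases before its start hold 14 CGs. Cyp24a1, which degrades active vitamin D, had 0, 1 and 2 against 2, 1 and 2 peaks, and Cyp27b1, which makes it, had 1 peak in TGF-β1 replicate 2. Cyp20a1, a member without a known substrate and outside these groups, had 4, 4 and 5 against 7, 5 and 7 peaks (exact permutation p = 0.2, adjusted p = 0.533), 10.9 per 100 kb.

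Over all P450 genes together, the numbers of peaks overlapped between the treatments. Control samples averaged 62.7 ± 9.61 P450 peaks and treated samples 73.7 ± 3.06 (SD, n = 3 each), and the groups overlapped (exact two-sided permutation test, p = 0.3, smallest possible p = 0.1). As a share of the peaks of a sample on chromosomes 1 to 19, P450 peaks came to 0.703 ± 0.0356 and 0.735 ± 0.0444 per 1000 (exact permutation p = 0.4, n = 3 each). Genes with a peak numbered 29, 33 and 33 against 38, 35 and 32 (exact permutation p = 0.3), genes with a promoter peak 3, 4 and 3 against 5, 3 and 3 (p = 1), and peaks in coding exons 3, 4 and 7 against 7, 8 and 5 (p = 0.3).

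Pileup over the 36 P450 regions called in every sample was compared with limma, in a fit over all 41744 such regions, on log2 pileups centered on each sample's median. At an adjusted p below 0.05 limma called 0 of the 36 P450 regions and 0 of the 41744 (0%). The smallest adjusted p of a P450 region was 0.999. At an unadjusted p below 0.05 there were 0 P450 regions among those higher in TGF-β1-treated samples (1.96% of all regions) and 2 of 36 among those lower (2.22% of all regions). Both are therefore differences that did not pass the correction. The median log2 fold change of the P450 regions was -0.08, with 12 of 36 above 0, and that of all regions was -0.00471, with 20521 above 0.

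The P450 region with the smallest p lay downstream of Cyp2c38, at chr19:39462179-39463006. Its pileups were 28, 25 and 36 in the controls and 18, 25 and 31 after TGF-β1, with a log2 fold change of -0.51 (SE 0.21, limma unadjusted p = 0.0243). As deposited the groups overlapped, while per 1000000 reads the controls (2.66 to 3.13) lay above the treated samples (1.41 to 2.33). Division by reads lowers every treated sample. With it, 2387 of all 41744 regions were lower and 212 higher in TGF-β1-treated samples at an unadjusted limma p below 0.05. The fold change was -0.30 without TGF-β1 replicate 1 and -0.25 with fold enrichment in place of pileup, and the printed stretch around its summit is 100% repeated. The region in intron 6 of Cyp4f17 followed, with pileups of 45, 53 and 69 against 51, 50 and 49 (log2 fold change -0.35, SE 0.16, limma unadjusted p = 0.0333), or 4.36 to 6.00 against 3.69 to 4.001 per 1000000 reads, and none of its words of 49 bases was repeated. Next came intron 1 of Cyp2c66 (27, 31 and 29 against 27, 21 and 30, log2 fold change -0.39, SE 0.20) and the coding exon of Cyp8b1 given above. In the other direction the smallest p belonged to the region downstream of Cyp2w1 (15, 14 and 24 against 19, 23 and 32, log2 fold change 0.27, SE 0.23), then to those downstream of Cyp4f16 (18, 15 and 16 against 18, 23 and 27, log2 fold change 0.23, SE 0.22), in intron 8 of Cyp2j13 (28, 30 and 41 against 46, 37 and 45, log2 fold change 0.16, SE 0.18) and in the untranslated part of exon 9 of Cyp2s1 (25, 12 and 22 against 25, 23 and 27, log2 fold change 0.19, SE 0.23). None of these 8 had an adjusted p below 0.05. Single samples moved several of these log2 fold changes by more than 1.5 times, with 0.11 (without TGF-β1 replicate 3) to 0.43 (without control replicate 3) for Cyp2w1, 0.14 (without TGF-β1 replicate 3) to 0.38 (without TGF-β1 replicate 1) for Cyp4f16, 0.092 (without control replicate 1) to 0.25 (without control replicate 3) for Cyp2j13, -0.39 (without control replicate 1) to -0.14 (without control replicate 3) for Cyp8b1, and a change of sign for Cyp2s1 without control replicate 2.

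**Figure D4:**
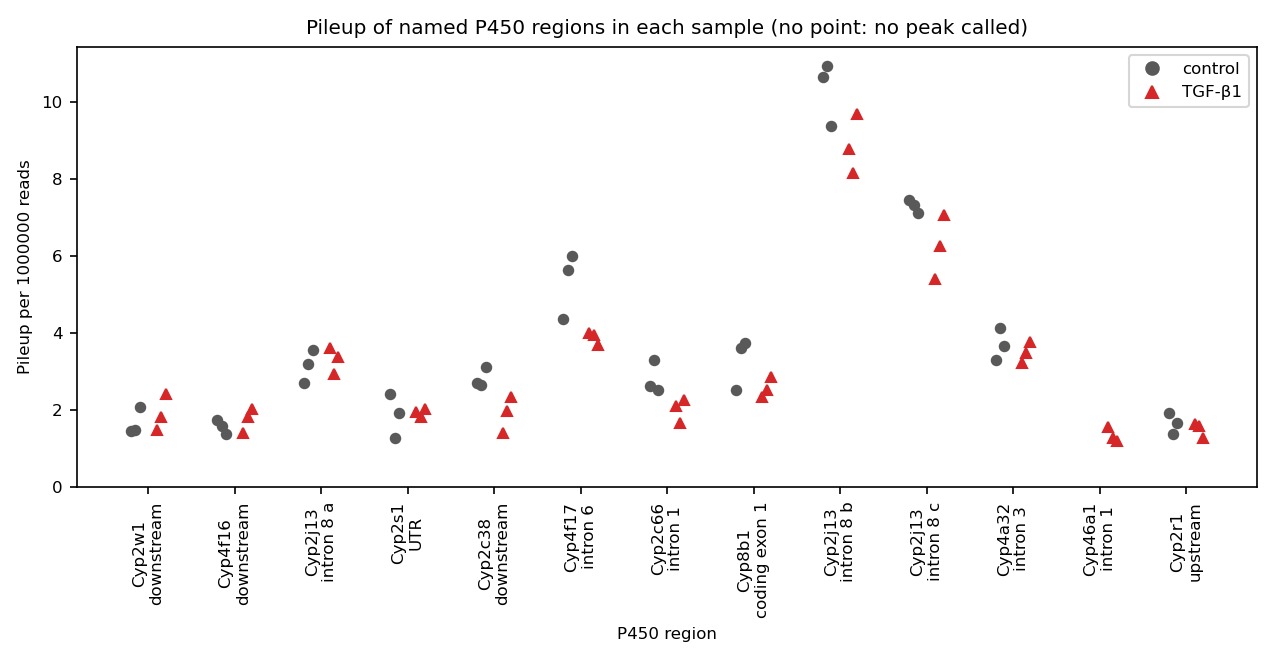
Pileup per 1000000 reads (y axis) of the named P450 regions (x axis) in each control sample (gray circles) and TGF-β1-treated sample (red triangles), with no point where no peak was called. Cyp2j13 reaches 10.9 and most regions lie below 4. On this scale controls lie above treated samples in Cyp4f17 (4.36 to 6.00 against 3.69 to 4.001) and Cyp2c38 (2.66 to 3.13 against 1.41 to 2.33). The same holds for Cyp2c66 (2.52 to 3.30 against 1.66 to 2.26) and Cyp2j13 at chr4:95716746-95717167 (7.13 to 7.46 against 5.41 to 7.07). Division by reads lowers every treated sample, since all had more reads than the controls.

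**Figure D5:**
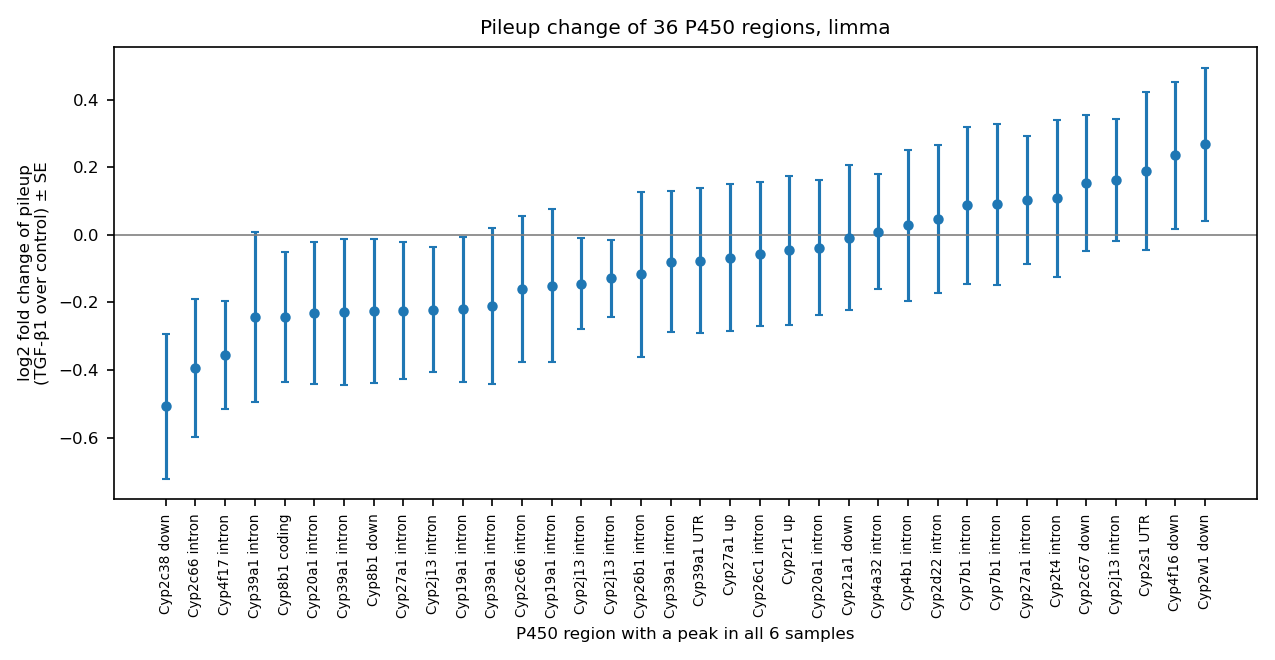
Log2 fold change of pileup (TGF-β1 over control) with its standard error for the 36 P450 regions called in all 6 samples, ordered by size, from limma on median-centered values. The changes run from -0.51 downstream of Cyp2c38 to 0.27 downstream of Cyp2w1, with 12 regions above 0, and none passed an adjusted p below 0.05.

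The median pileup over the 36 regions was 2.28, 2.23 and 2.22 per 1000000 reads in the controls against 1.96, 1.90 and 2.07 after TGF-β1, so each treated sample was below each control sample (exact permutation test, p = 0.1, the smallest possible). Over all 41744 regions the medians were 2.23, 2.44 and 2.35 against 2.20, 2.14 and 2.26. Relative to the median of all regions in the same sample, a scaling chosen after the data were seen, the P450 median was 1.02, 0.913 and 0.944 in control and 0.893, 0.889 and 0.917 in treated samples (exact permutation p = 0.2), and the groups overlapped.

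Of the 108 P450 regions, 1 had a peak in each of the 3 treated samples and in no control sample, which compares with 0.948% of all regions, and 0 were called in the 3 controls only, compared with 0.233%. That region lay in intron 1 of Cyp46a1, at chr12:109576184-109576584, with pileups of 20, 16 and 16, where the lowest called in these samples were 9 to 10, and 28.6% of its words were repeated. A single P450 gene of the 46 with a peak had more peaks in every treated than in every control sample, compared with 3.93% of all genes with a peak, and 0 had fewer, compared with 0.345%. This was Cyp2c44, an arachidonic acid epoxygenase gene, with 1, 1 and 2 peaks in control and 4, 4 and 4 in treated samples. Its main peaks sat in 3 neighboring regions within chr19:44081309-44083543, in introns 7 and 8, where pileups were 13 to 20 in the controls called and 17 to 27 in the treated samples. All 3 treated samples had a peak in each of these regions, against 1 or 2 of the 3 controls. Neither count of 1 exceeded the genome-wide share, at 0.926% of P450 regions and 2.17% of P450 genes with a peak.

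Genes that work with P450 enzymes or regulate them formed a second list, of electron donors (Por, Fdx1 and others), receptors (Ahr, Nr1i2, Ppara and others) and some P450 enzymes with other symbols (Cyp51, Tbxas1 and Ptgis). Of the 19 listed, 18 were matched and all 18 had a peak in at least 1 sample, where 24.1% of protein-coding genes other than P450 members had none. Of their 121 regions limma tested 21, of which 0 passed an adjusted and 0 an unadjusted p below 0.05. Over all regions tested, 0% passed the adjusted threshold, and 1.96% (higher in TGF-β1-treated samples) and 2.22% (lower) the unadjusted one. Among so few regions, counts of 0 are no result about these genes. Por, the reductase that supplies electrons to microsomal P450 enzymes, had 6, 7 and 10 peaks in control and 8, 8 and 10 in treated samples. Ahr, the receptor that induces the Cyp1 family, had 3, 5 and 3 against 3, 5 and 5. Tbxas1, the thromboxane synthase, had the most, 14, 10 and 17 against 12, 15 and 21, and its groups overlapped too. No region of the list was called in all samples of 1 group and none of the other. Over all regions, these shares were 0.948% for treated samples only and 0.233% for controls only.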

How the data were processed

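Data were MeDIP-seq peak lists of 3 control and 3 TGF-β1-treated samples of mouse primary mesangial cells, grouped by their labels. According to the study's methods and per the file headers, the authors mapped reads to mm9 with BWA, removed duplicates and called peaks in each sample with MACS2 2.1.0.20150731 at a q cutoff of 0.01, without an input sample. In the deposited lists the pileup is a signal, the extended reads stacked at the summit, with no scaling to depth. The fold enrichment the authors deposited is a ratio to the local background, and deposited p-values and q-values are given as −log10. Reads that matched more than 1 place in the genome had been left out by the authors.

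Peaks were assigned by summit to genes of GENCODE vM1 (NCBIM37, the assembly of mm9) with 2 kb either side, and joined into regions where they overlapped by 1 bp, which was checked against bedtools 2.31.1. Regions with a peak in all 6 samples were tested with limma 3.58.1 in R 4.3.3 (eBayes with a trend, Benjamini-Hochberg over all regions) on the log2 of the pileup, because reads of uncalled regions were not analysed here. On simulated data for this comparison (41744 regions, all with the same SD of 0.260), limma found 200 of 200 regions moved by 2 on the log2 scale, with 16 false calls. Changes as small as those of the P450 regions (-0.51 to 0.27) were not simulated, so this does not say whether limma would find them. Values per sample were compared in Python 3.11.15 by exact permutation or sign-flip tests. Intervals of counts and floors were not computed, since the lists hold called peaks only.

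Regions and genes were named by rule, namely the 6 members with most peaks and with most peaks per 10 kb, the 4 regions of lowest limma p in either direction, up to 5 regions called in 1 group only, the 5 highest regions, members with counts that do not overlap or with a promoter peak in all samples, up to 10 members without a peak, and all members of the smaller role groups. Further genes were named to describe their role group, subfamily or list. Members, lists and tests were chosen with earlier results of these data known. Alternatives were a −log10 q or a fold enrichment of at least 5, lists of equal length, other windows, scaling by reads, other limma settings, leaving out each sample, and a replicate block.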

Additional observations from a re-analysis of the deposited data

How the results depend on the processing

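The labels do not say whether same-numbered control and TGF-β1 samples were paired. Deviations from the group means correlated at -0.0464, 0.0432 and -0.130 between same-numbered samples, and at -0.124 to 0.168 between the others. With 3 samples a group, these values cannot decide whether the samples were paired. With the replicate block the limma count stayed at 0. In it, 2 role groups moved 1 way in all 3 same-numbered differences. Without the block, 1 group did not overlap, which is a different criterion, so the 2 counts cannot be set against each other. The density difference of -2.81 peaks per 100 kb then had p = 0.25, the smallest that 3 exact sign flips allow. That difference stayed below 0 under every alternative run, with -2.89 to -2.74 without each sample (exact sign-flip p = 0.0625, the smallest for 5). It was nearest 0 within classes of CG content, at -0.450 below 6 CGs per kb and -0.166 at 6 to 10 (exact sign-flip p = 0.03125 each). Among genes with 10 or more CGs per kb it was -0.801 (exact sign-flip p = 0.09375). Differences between treatments turned sign in these cases: P450 peaks per 1000000 reads -0.303, P450 peaks per 1000 with 10 kb either side -0.00217, genes with a promoter peak (-0.333 without TGF-β1 replicate 1, 0.667 without control replicate 2), the median pileup as deposited 2.17, and per 1000000 reads the Cyp2 (-0.0194), cholesterol (-0.271) and vitamin D and retinoic acid (-0.0546) groups. Without single samples the cholesterol group ran from -0.167 to 2.33, the vitamin D and retinoic acid group from -1 to 2 (-1 without control replicate 1), and the role groups that do not overlap from 1 to 4 (4 without control replicate 3). P450 regions of an unadjusted limma p below 0.05 and lower in TGF-β1-treated samples numbered 3 with division by reads, 0 with fold enrichment, 1 without a trend, 1 with peaks in at least 3 samples (2 in the higher direction) and 0 to 2 without single samples (0 without TGF-β1 replicate 1). The Cyp46a1 region lost its call, leaving 0, in lists of equal length and where peaks had to reach a fold enrichment of 5. Cyp2c44 kept its higher counts in each of the 4 alternatives, while genes with lower counts rose to 1 (Cyp7b1) at a −log10 q of at least 5 and in equal lists, and to 11 per 1000000 reads, where division alone lowers treated samples of equal counts (Cyp8b1, Cyp27a1), so this is no result about those genes. Of the named regions, Cyp4a32 changed sign (-0.0815 by reads, -0.0493 by fold enrichment, -0.0357 to 0.0664 without single samples), as did Cyp2s1 (-0.0947 without control replicate 2 to 0.435 without control replicate 1). The cause of these changes was not tested. Peak lists and 9407103 to 13291419 reads limit what can be seen, since weakly enriched stretches are left out.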
